A study of Mus musculus with 6 samples.

Results

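Rab GTPases are the small switch proteins that give each membrane compartment of the cell its identity and route vesicles between compartments. The members described here are all genes of the deposited expression table whose symbol is Rab followed by a number and at most a letter and a further digit, 59 of 21761 genes. The study followed bone marrow of male C57BL/6J mice through a culture driven by Flt3 ligand (Flt3L), the cytokine used to grow dendritic cells (DCs) from marrow, and sampled it at 3 times. The groups were marrow at day 0, cells at day 4 titled CMP, and cells at day 7 titled BMDC, with 2 RNA-seq libraries each, numbered II and III, I and II, and III and IV. The labels give the same strain, sex and culture medium for all 6 libraries, the Flt3L being supplied as supernatant of a transfected SP2/0 line, and they say that all live cells were used on days 4 and 7. They do not say whether libraries of a group came from separate mice or cultures, so the p-values below measure only the spread between these libraries, which may be technical.

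In its GTP-bound form a Rab recruits effectors such as tethers, motors and fusion factors, and in its GDP-bound form it is taken off the membrane by GDP dissociation inhibitors. Exchange factors, many of them with a DENN domain, load GTP, and GTPase-activating proteins, mostly with a TBC domain, end the cycle. Rab1 and Rab2 act between the endoplasmic reticulum (ER) and the Golgi, Rab5 on early endosomes, Rab11 on recycling endosomes, Rab7 on late endosomes and lysosomes, and Rab3 and Rab27 on secretory granules. In leukocytes these routes carry granule release in neutrophils, mast cells and basophils, and antigen uptake and degradation in macrophages and DCs.

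The promoters of all members that were called higher in day 4 against day 0 or in day 7 against day 4, and that have an entry in the table used, are shown first. Of the 59 members, 48 had at least 1 entry in the RefSeq promoter table (build GRCm38.p6), with 60 promoters in all. Each line gives the 250 bases before the annotated start, 5′ to 3′ on the gene's strand. Rab31, Rab32, Rab11a, Rab9 and Rab13 were called higher at day 4 than at day 0. Rab12, Rab10 and Rab5c were called higher at day 7 than at day 4. The Rab13 call rests on 0 reads at day 0 and is not a detectable difference at that depth. Rab13 has entries for a pair of starts. Capitals mark matches, on either strand, to 6 motifs: GGGCGG (the GC box), CCAAT (bound by the factor NF-Y), CACGTG (the E box), GAGGAA (the core bound by the factor PU.1), CCGGAAG (an Ets core) and TTNNGCAA (the C/EBP pattern).
Rab31, chr17:65772753-65773002, minus strand: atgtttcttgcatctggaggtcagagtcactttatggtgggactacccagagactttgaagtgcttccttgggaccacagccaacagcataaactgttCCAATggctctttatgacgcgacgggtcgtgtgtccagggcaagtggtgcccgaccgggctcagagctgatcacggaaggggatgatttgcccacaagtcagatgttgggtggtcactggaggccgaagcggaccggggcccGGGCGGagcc
Rab32, chr10:10558208-10558457, minus strand: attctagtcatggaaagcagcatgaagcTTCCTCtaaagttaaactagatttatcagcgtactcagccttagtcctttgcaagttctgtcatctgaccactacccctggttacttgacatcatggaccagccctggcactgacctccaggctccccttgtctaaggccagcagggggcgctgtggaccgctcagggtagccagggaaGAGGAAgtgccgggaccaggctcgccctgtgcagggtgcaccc
Rab11a, chr9:64737757-64738006, minus strand: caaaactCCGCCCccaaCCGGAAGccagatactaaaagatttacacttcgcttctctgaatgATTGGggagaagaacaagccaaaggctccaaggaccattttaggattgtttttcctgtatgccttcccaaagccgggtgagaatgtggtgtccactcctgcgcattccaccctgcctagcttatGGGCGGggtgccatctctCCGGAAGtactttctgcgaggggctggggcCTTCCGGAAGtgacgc
Rab9, chrX:166479868-166480117, minus strand: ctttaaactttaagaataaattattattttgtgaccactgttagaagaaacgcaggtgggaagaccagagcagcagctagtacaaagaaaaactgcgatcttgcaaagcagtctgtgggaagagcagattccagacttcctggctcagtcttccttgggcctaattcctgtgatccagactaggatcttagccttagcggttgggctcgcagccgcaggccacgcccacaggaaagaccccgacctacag
Rab13, chr3:90213465-90213714, plus strand: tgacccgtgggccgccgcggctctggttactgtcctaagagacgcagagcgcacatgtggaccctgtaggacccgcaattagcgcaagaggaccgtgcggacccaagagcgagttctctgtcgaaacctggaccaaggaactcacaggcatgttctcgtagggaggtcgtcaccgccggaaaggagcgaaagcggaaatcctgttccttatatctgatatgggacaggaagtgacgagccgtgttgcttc
Rab13, chr3:90220534-90220783, plus strand: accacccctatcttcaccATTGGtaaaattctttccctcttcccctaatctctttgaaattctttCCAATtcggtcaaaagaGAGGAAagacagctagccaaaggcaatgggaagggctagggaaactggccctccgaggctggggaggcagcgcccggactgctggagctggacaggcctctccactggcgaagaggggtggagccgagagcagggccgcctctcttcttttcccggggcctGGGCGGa
Rab12, chr17:66519671-66519920, minus strand: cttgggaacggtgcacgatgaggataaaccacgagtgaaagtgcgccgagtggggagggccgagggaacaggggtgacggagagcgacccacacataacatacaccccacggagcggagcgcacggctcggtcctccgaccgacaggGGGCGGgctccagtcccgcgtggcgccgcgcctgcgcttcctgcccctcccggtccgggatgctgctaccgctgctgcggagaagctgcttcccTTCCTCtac
Rab10, chr12:3309970-3310219, minus strand: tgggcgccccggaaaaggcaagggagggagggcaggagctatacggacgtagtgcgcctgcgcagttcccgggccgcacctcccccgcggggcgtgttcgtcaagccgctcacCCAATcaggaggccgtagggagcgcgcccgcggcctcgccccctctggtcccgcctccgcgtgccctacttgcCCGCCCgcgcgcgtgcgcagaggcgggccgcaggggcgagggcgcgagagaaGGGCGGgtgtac
Rab5c, chr11:100738216-100738465, minus strand: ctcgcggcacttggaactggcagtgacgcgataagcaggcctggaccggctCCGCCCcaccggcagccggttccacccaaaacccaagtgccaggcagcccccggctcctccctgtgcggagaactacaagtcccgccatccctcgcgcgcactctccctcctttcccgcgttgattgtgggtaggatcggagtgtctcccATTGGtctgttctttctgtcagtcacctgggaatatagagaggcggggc
In Rab11a the CCGGAAG match nearest the start overlaps a match of the same motif on the other strand, which makes a single run of capitals. The Rab9 window and the first Rab13 window hold none of the 6 motifs. GGGCGG was present in 66.7% of the 60 Rab promoters and in 32.7% of all 32851 promoters of the table, while the median GC content was 60.2% and 52.4%. CCAAT was present in 40% of Rab promoters against 33.8% of all, CACGTG in 8.33% against 6.02%, and GAGGAA in 13.3% against 23.3%. CCGGAAG was present in 5% against 6.91%, and TTNNGCAA in 6.67% against 9.56%. These matches describe letters in the window only. Rab44 and Rab7b, which were also called higher in one of the steps, and Rab37 had no entry in that table.

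Expression was given as RPKM, reads in a gene scaled by its exon length and by the library's reads in genes, so levels can be compared between genes. Depth differed strongly between the days, from 157797 to 322837 reads in genes at day 0, from 1365635 to 3852628 at day 4 and from 10951745 to 16149088 at day 7. The worth of 3 reads for a gene 1 kb long was 9.29 and 19.01 RPKM at day 0 against 0.186 and 0.274 at day 7. Olfr, Vmn and Taar genes, the receptors for odorants, pheromones and trace amines, are not known as marrow genes. The 1449 of them had a pooled level of 8.71 and 8.29 RPKM at day 0, 4.33 and 0.846 at day 4, then 0.0218 and 0.0236 at day 7. Without their 10 highest genes that level was 2.996 and 4.42 at day 0, 3.08 and 0.590 at day 4, then 0.0114 and 0.0127 at day 7. At day 0, 14 and 11 of the 59 Rab genes lay at or below this trimmed level, and at day 4 15 and 10 did. Low Rab values of these days cannot be told apart from whatever put reads on receptor genes.

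The labelled cell types were checked against marker lists. Of 12 conventional DC markers 4 rose and 0 fell between day 4 and day 7, beside 5.85% of all tested genes called higher and 6.75% lower. At day 7, 5 were higher and 3 lower than at day 0, beside 11.3% and 29.3% of all tested genes. Cd74, the invariant chain of MHC class II, and the class II genes H2-Ab1 and H2-Aa were the highest of them at day 7. They were at 1814 and 1932, 666 and 730, and 268 and 258 RPKM, and were called higher than on both earlier days. Macrophages can also express them. Itgax was at 24.7 and 25.9 RPKM at day 7 and was called higher than at day 0. Zbtb46, at 0.0288 and 0.0283 RPKM, and Flt3, at 1.22 and 1.97, were called lower than at day 0. Their day 0 values were low, 2.40 and 4.91 RPKM from 5 reads each for Zbtb46 and 6.78 and 17.3 for Flt3. Only the 17.3 lay above the pooled receptor level of that day, 8.71 and 8.29. The macrophage genes C1qa and Csf1r reached 139 and 170, and 219 and 242, at day 7. The summed RPKM of 12 macrophage markers was 12214 and 12996 at day 7, against 2830 and 3017 for 12 conventional DC markers. At day 4, titled CMP, Kit was at 8.34 and 18.1 RPKM, while 11 neutrophil markers summed to 46217 and 34093. In bulk RNA, a change in the share of a cell type and a change in RNA per cell cannot be told apart, and this holds for each result below.

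Rab genes took a larger share of reads at days 4 and 7 than at day 0. The share was 0.250% (exact 95% interval 0.233 to 0.267) and 0.333% (0.305 to 0.362) at day 0. On day 4 it was 0.578% (0.566 to 0.591) and 0.635% (0.627 to 0.643), and on day 7 0.457% (0.454 to 0.461) and 0.454% (0.450 to 0.458). The groups did not overlap, but with 2 libraries a group an exact two-sided permutation test cannot go below p = 0.333, so no test was made, and the intervals cover counting error only. Erythroid markers fell over the same span: 12 of 12 were called lower at day 4 than at day 0, beside 1.92% of all tested genes. Their summed levels were 79190 and 39744 RPKM at day 0, 3758 and 4055 on day 4, then 47.7 and 64.2 on day 7. Their part in the share of Rab genes, and in the members that rose at day 4, was not tested. Reads were found for 56 and 55 of the 59 members at day 0, 59 and 58 at day 4, then 53 and 50 at day 7. The members spread widely within every day, from levels at 0 or near it for Rab30, Rab15 and Rab9b at day 7 to 231 RPKM for Rab1b in a day 7 library and 265 for Rab32 in a day 4 library.

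**Figure D1:**
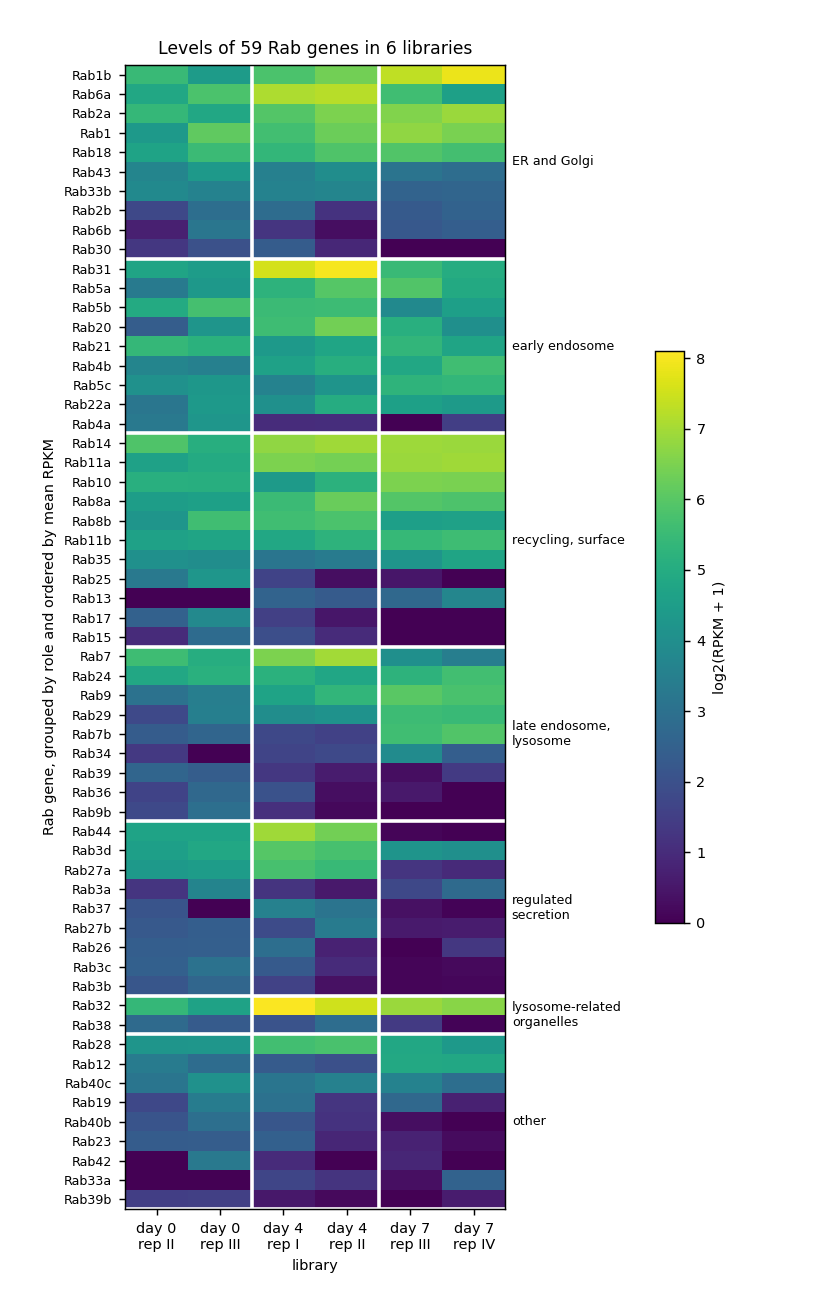
Levels of the 59 Rab genes as log2(RPKM + 1), 1 row a gene and 1 column a library, with genes grouped by role and ordered within a group by mean RPKM. Rab31 and Rab32 are brightest at day 4, Rab1b at day 7, and the rows of regulated secretion are dark at day 7 except for Rab3d and Rab3a.

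The member's day of highest mean was day 0 for 22 members (37.3%), day 4 for 17 (28.8%) and day 7 for 20 (33.9%). Among the 19279 genes tested the same shares were 54.9%, 24.6% and 20.6%. Replicates of a day were compared on the RPKM + 1 scale. They differed by more than 2-fold for 28.8% of members at day 0, 20.3% at day 4 and 16.9% at day 7. For tested genes it was 38.3%, 37.0% and 6.48%. Values near 0 differ little on this scale, such as Rab39b at 0.0184 and 0.543 RPKM at day 7, and are not counted. The members behind the 16.9% at day 7 included Rab4a, with 0 reads in library III and 28 in library IV, and Rab33a, with 4 and 51 reads.

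Comparing day 4 with day 0 asks what changed over the first 4 days of culture. Of the 59 members, 58 passed the filter of at least 1 RPKM in at least 2 libraries (Rab42 did not), and 6 rose while 0 fell at an adjusted p under 0.05 in limma, a linear model across all genes. Of all tested genes 3.66% were called higher and 1.92% lower, 5.58% in either direction. At an unadjusted p under 0.05, 20 members were higher and 6 lower, beside 11.2% of all tested genes higher and 14.2% lower. The median log2 difference was -0.00 over the members against -0.32 over all genes. The 6 were Rab31, Rab32, Rab44, Rab11a, Rab9 and Rab13, the last against 0 reads at day 0.

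Leaving out either day 4 library ended every call in this comparison, with 0 of all 19279 tested genes called in limma and so 0 members. At an unadjusted p under 0.05, the members gave 16 higher and 9 lower without library I, beside 8.24% and 25.5% of all genes, and 10 and 2 without library II, beside 8.36% and 9.47%. Leaving out day 0 library II gave 12 higher and 4 lower, leaving out day 0 library III gave 12 and 0, and leaving out either day 7 library left 2, Rab31 and Rab32. After quantile normalization, which moved the median fitted log2 difference of all tested genes from -0.40 to -0.04, 4 members were higher and 1 lower, and with median ratio scaling 7 and 1.

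Comparing day 7 with day 4 asks what changed over the second step, and it uses the same day 4 libraries. In this step 4 members rose (Rab7b, Rab12, Rab10 and Rab5c) and 7 fell (Rab44, Rab27a, Rab37, Rab7, Rab31, Rab6a and Rab3d), where 5.85% of all tested genes were called higher and 6.75% lower, 12.6% in either direction. The median log2 difference was -0.20 over the members and -0.74 over all genes. Leaving out either day 4 library again left 0 of all tested genes called in limma. At an unadjusted p under 0.05 the members gave 5 higher and 8 lower without library I, beside 8.30% and 12.8% of all genes, and 6 and 15 without library II, beside 7.73% and 29.4%. Leaving out day 7 library III left Rab7b higher and Rab44, Rab27a, Rab7 and Rab31 lower, and leaving out day 7 library IV left the same genes but Rab31. Leaving out either day 0 library gave 7 higher and 11 lower, and quantile normalization gave 1 and 5.

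Comparing day 7 with day 0 covers the whole culture and shares its libraries with both steps. Of the members 16 rose and 10 fell, beside 11.3% of all tested genes called higher and 29.3% lower. In either direction 44.1% of members and 40.6% of tested genes were called. The median log2 difference was -0.22 over the members and -1.02 over all genes. At day 0, 1 read of a gene 1 kb long was worth 3.10 and 6.34 RPKM, so a gene could pass the filter through few reads of that day. Of the 10 called lower, Rab17, Rab25, Rab3b and Rab9b passed it only with their day 0 libraries. The same filter was applied to all tested genes, so their share called lower is open to this too. Without day 7 library III, 6 stayed higher (Rab7b, Rab9, Rab11a, Rab1b, Rab13 and Rab29) and 2 lower (Rab44 and Rab27a), and without day 7 library IV 2 stayed higher (Rab7b and Rab9) and 3 lower (Rab44, Rab27a and Rab4a). Without day 0 library III the counts were 18 and 6, with Rab34, Rab3b, Rab3c, Rab40b and Rab9b no longer called, and quantile normalization gave 5 and 5. Without either day 4 library 12 were higher and 12 lower, with Rab14, Rab29, Rab34, Rab4a, Rab5a and Rab7 no longer called, and without day 0 library II 14 and 14, with Rab5a and Rab5c no longer called.

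**Figure D2:**
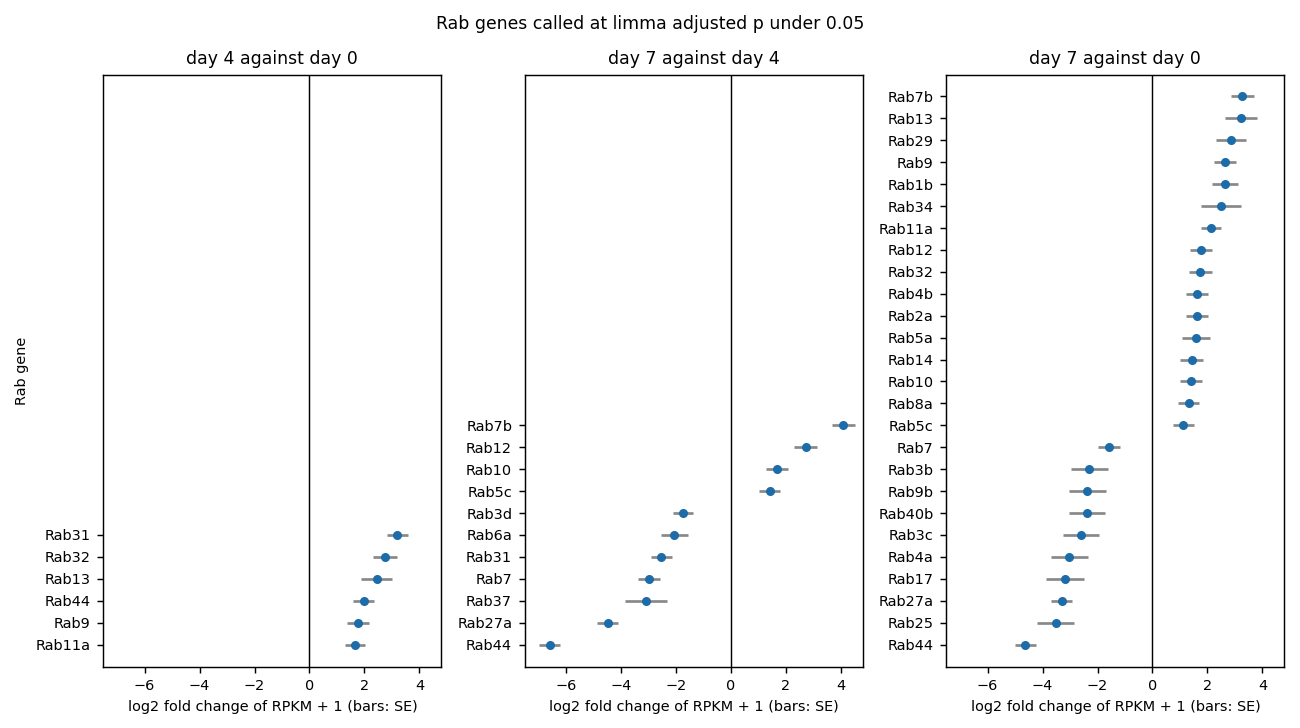
Log2 fold change of RPKM + 1 for each Rab gene called in each of the 3 comparisons; bars are the standard error from limma. In day 7 against day 4 the values run from -6.60 for Rab44 to 4.09 for Rab7b; the points of Rab13 against day 0 rest on 0 reads at day 0 and are not a measured fold.

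The widest fall within the family was among the 9 members that act in regulated secretion. Their summed RPKM was 87.7 and 106.6 at day 0, 263 and 197 at day 4, then 21.9 and 24.7 at day 7. In day 4 against day 0 1 of the 9 rose, in day 7 against day 4 4 fell, and in day 7 against day 0 4 fell, with none called the other way. The 4 were Rab44, Rab27a, Rab37 and Rab3d in day 7 against day 4, and Rab44, Rab27a, Rab3b and Rab3c in day 7 against day 0. Each set makes up 44.4% of the group, beside 6.75% and 29.3% of all tested genes called lower. Rab3b and Rab3c lay under the pooled receptor level at day 0. The group's median log2 differences were 0.27, -1.75 and -1.77.

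Rab44, a large Rab with EF hands known from mast cells and osteoclasts (Entrez 442827), was at 24.9 and 24.7 RPKM at day 0, 122 and 81.9 at day 4, then 0.0905 and 0 at day 7. Both day 4 libraries were above both day 0 libraries, and the day 7 libraries held 6 and 0 reads. It rose at day 4 by 1.97 ± 0.39 on the log2(RPKM + 1) scale (standard error here and below; limma adjusted p = 0.030), and at day 7 it was lower than at day 4 by a difference of -6.60 ± 0.39 (adjusted p = 0.00015) and than at day 0 by -4.63 ± 0.39 (adjusted p = 0.00043).

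Rab27a, which docks granules at the plasma membrane (Entrez 11891), was at 19.3 and 21.3 RPKM at day 0, 52.0 and 42.6 at day 4, then 1.36 and 0.946 at day 7. Day 4 lay above day 0 in both libraries but did not pass the test (1.18 ± 0.38, adjusted p = 0.11). It fell between day 4 and day 7 (-4.49 ± 0.38, adjusted p = 0.00045) and was lower at day 7 than at day 0 (-3.31 ± 0.38, adjusted p = 0.0013). Its relative Rab27b was low throughout, between 0.489 and 9.30 RPKM.

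Rab37, another Rab of secretory granules, was at 3.31 and 0 RPKM at day 0, 10.7 and 7.59 at day 4, then 0.287 and 0.0651 at day 7. It fell from day 4 to day 7 (-3.10 ± 0.77, adjusted p = 0.035). Day 0 held only 3 reads of it in all, so that the day 4 to day 0 ratio of pooled levels was 3.78 with a 95% counting interval of 1.26 to 18.6. Rab3d, the Rab3 member of granules outside neurons, was at 22.6 and 27.8 RPKM at day 0, 61.5 and 52.7 at day 4, then 17.2 and 15.4 at day 7, and it fell between day 4 and day 7 (-1.75 ± 0.35, adjusted p = 0.016).

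Of the secretion members Rab3b, Rab3c, Rab26 and Rab27b stayed under 10 RPKM in all 6 libraries. Rab3b was at 3.47 and 5.33 RPKM at day 0 and Rab3c at 4.63 and 7.28, with 3 to 13 reads a library, all under the pooled receptor level of that day. Rab3b and Rab3c were both called lower at day 7 than at day 0, at levels of 0.0695 to 0.157 RPKM. With the pooled receptor level subtracted from every gene, the log2 difference turned to 0.09 for Rab3b (limma adjusted p = 0.035, now called higher) and 0.14 for Rab3c (adjusted p = 0.45). Rab26 and Rab3a passed no test, with Rab3a at 1.40 and 11.5 RPKM at day 0 and 2.38 and 6.03 at day 7.

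Markers of granulocytes fell with these genes between day 4 and day 7. Of the 11 neutrophil markers found, 11 fell between day 4 and day 7, from summed levels of 46217 and 34093 RPKM to 174 and 171, and Elane was at 1119 RPKM in day 4 library II and at 0.538 and 0 at day 7. At day 0 that sum was 64243 in library II and 7929 in library III, while Rab44 was at 24.9 and 24.7. In day 4 against day 0, 1 of the 11 neutrophil markers was called higher and 0 lower, beside 3.66% and 1.92% of all tested genes. Of the 10 basophil and mast cell markers, 2 rose at day 4, Hdc from 99.0 and 56.0 RPKM at day 0 to 252 and 410 and Prss34 from 30.6 and 0 to 232 and 439, while Rab44 rose. Between day 4 and day 7, 7 of the 10 fell, with sums of 562 and 936 RPKM at day 4 and 1.45 and 0.350 at day 7. In the day 7 libraries 6 and 8 of the 10 were at 0 reads. Of all tested genes 6.75% were called lower from day 4 to day 7. Their part in the rise and fall of the secretion Rabs was not tested.

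**Figure D3:**
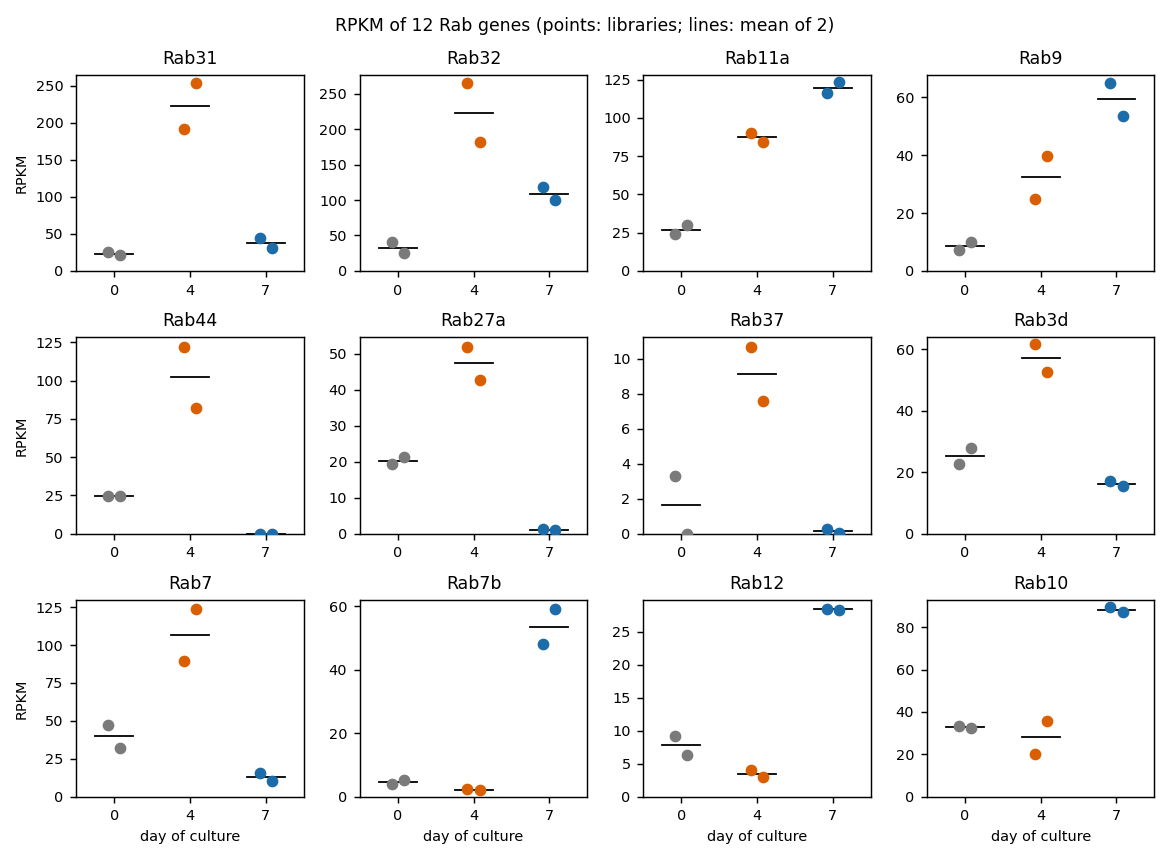
RPKM of 12 Rab genes by day of culture, each point a library and each line the mean of 2. Rab31, Rab32, Rab44, Rab27a, Rab37, Rab3d and Rab7 peak at day 4, Rab7b, Rab12 and Rab10 are highest at day 7, and Rab11a and Rab9 increase in mean at each day; each panel has its own linear axis from 0.

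Late endosome and lysosome Rabs split between Rab7 and Rab7b. Rab7, the general Rab of late endosomes (Entrez 19349), was at 47.5 and 32.4 RPKM at day 0, 89.8 and 124 at day 4, then 15.5 and 10.03 at day 7. Rab7b, which works in transport between endosomes and the Golgi and is known from macrophages (Entrez 226421), was at 4.08 and 5.22 RPKM at day 0, 2.41 and 1.97 at day 4, then 48.0 and 59.1 at day 7. The day 7 libraries were the lowest of the 6 for Rab7 and the highest of the 6 for Rab7b. In day 4 library I the 2.41 RPKM of Rab7b lay under the trimmed receptor level of 3.08. In day 4 library II its 1.97 RPKM lay above that level, 0.590.

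Between day 4 and day 7 Rab7 fell 7.90-fold on the RPKM + 1 scale (log2 difference -2.98 ± 0.41, adjusted p = 0.0032) and Rab7b rose 17.1-fold (4.09 ± 0.40, adjusted p = 0.00079). Against day 0, Rab7b was higher at day 7 by 3.27 ± 0.40 (adjusted p = 0.0017), and Rab7 was lower by a difference of -1.58 ± 0.41 (adjusted p = 0.022). The latter call held in 8 of 18 alternatives, and in 2 of the 6 that leave out a library. Of the summed RPKM of both genes, Rab7b made up 7.91% and 13.9% at day 0, 2.61% and 1.56% at day 4, then 75.6% and 85.5% at day 7.

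Rab7b moved with the macrophage markers, of which 11 of 12 rose between day 4 and day 7, from summed levels of 237 and 144 RPKM to 12214 and 12996; C1qa was at 0 reads in both day 0 libraries. Between day 4 and day 7, 4 of 12 conventional DC markers and 2 of 10 plasmacytoid DC markers also rose, and 0 of either list fell. Of all tested genes 5.85% were called higher and 6.75% lower in that step. The part of any of these cells in the change of Rab7b was not tested. In the GENCODE M21 annotation, exons of Rab7 share 204 bases with Gm5577 on the opposite strand, and whether reads were counted by strand is not given in the sources used here.

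Rab9, which returns mannose 6-phosphate receptors from late endosomes to the Golgi (Entrez 56382), was at 7.35 and 10.03 RPKM at day 0 (3 and 2 reads), 24.9 and 39.6 at day 4, then 64.9 and 53.5 at day 7. The 3 days did not overlap. It rose from day 0 to day 4 by 1.76 ± 0.40 (adjusted p = 0.044) and was higher at day 7 than at day 0 by 2.64 ± 0.40 (adjusted p = 0.0037). Its close relative Rab9b had 3 and 4 reads at day 0 and 0 at day 7. Its pooled day 0 level was 132 times the day 7 floor of 3 reads over the group. That value leaves out the counting error of the 7 reads at day 0 and is not a lower bound. With the pooled receptor level subtracted the difference was 0.

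Rab29, which recruits the kinase Lrrk2 to membranes, stood at 2.49 and 10.2 RPKM at day 0 (3 reads in all), 14.7 and 16.5 at day 4, then 45.5 and 44.0 at day 7. It was higher at day 7 than at day 0 (2.87 ± 0.55, adjusted p = 0.0087), with a ratio of pooled levels of 8.95 and a counting interval of 3.06 to 43.4. Rab34, known from lysosome positioning and macropinocytosis, was also called, at 14.0 and 4.39 RPKM at day 7, but it had 1 read at day 0 and a ratio of 9.79 with an interval of 1.75 to 387. Over the 9 members of this group, the counts of higher and lower were 1 and 0, 1 and 1, and 4 and 2 in the 3 comparisons in the order given above, with median log2 differences of -0.00, 0.45 and 0.44. In day 7 against day 0 this is 44.4% higher and 22.2% lower, beside 11.3% and 29.3% of all tested genes. Each count of 1 is 11.1% of the group. Beside it stand 3.66% of all tested genes higher at day 4, then 5.85% higher and 6.75% lower from day 4 to day 7. Rab24, Rab36 and Rab39 passed no test.

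Among the 9 early endosome members Rab31 stood out at day 4. Rab31, of the Rab22a subfamily, which works between the trans-Golgi network and endosomes (Entrez 106572), was at 25.4 and 21.4 RPKM at day 0, 192 and 254 at day 4, then 44.3 and 31.1 at day 7. Neither day 0 nor day 7 came near the day 4 libraries. It rose 9.11-fold at day 4 (3.19 ± 0.38, adjusted p = 0.0094) and fell 5.81-fold by day 7 (-2.54 ± 0.38, adjusted p = 0.0049). Its share of the summed RPKM of Rab22a and Rab31 was 92.4% and 88.9% at day 4, and between 51.8% and 75.8% in the other 4 libraries.

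The Rab5 genes, which drive fusion of early endosomes, shifted in their mix. Rab5c was at 16.2 and 18.4 RPKM at day 0, 11.1 and 17.3 at day 4, then 37.6 and 39.7 at day 7. It rose between day 4 and day 7 (1.42 ± 0.38, adjusted p = 0.046). Rab5a was at 9.17 and 18.8 RPKM at day 0, 36.6 and 62.0 at day 4, then 58.4 and 29.2 at day 7, and was called higher at day 7 than at day 0 (1.58 ± 0.51, adjusted p = 0.040). Leaving out any of 5 of the 6 libraries, all but day 0 library III, ended the Rab5a call. Rab5b passed no test, with 54.3% and 58.2% of the summed Rab5 level at day 0, 48.8% and 36.8% at day 4, then 12.2% and 24.9% at day 7; no share was tested.

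Rab4b, which acts in fast recycling from early endosomes, rose from 11.99 and 10.5 RPKM at day 0 to 27.9 and 48.0 at day 7 (1.62 ± 0.41, adjusted p = 0.020). Rab4a was called lower over the same span (-3.02 ± 0.68, adjusted p = 0.015) from 4 reads in each day 0 library, at 8.77 and 18.0 RPKM, to 0 and 1.81 RPKM. Rab20, a Rab of phagosomes, was at 4.29 and 17.6 RPKM at day 0 from 3 reads, and at 46.7 and 82.7 at day 4, and missed the threshold (adjusted p = 0.054). The ratio of its pooled levels was 8.47 with a counting interval of 2.87 to 41.3. The group's higher and lower counts were 1 and 0, 1 and 1, and 3 and 1 in the 3 comparisons, with median log2 differences of 0.76, -0.20 and 0.72. The last pair is 33.3% and 11.1% of the group, beside 11.3% and 29.3% of all tested genes, and in either direction the 4 of 9 lie near the 40.6% of all genes. In the earlier comparisons each count of 1 is 11.1%, beside 3.66% higher, then 5.85% higher and 6.75% lower. Rab21 and Rab22a passed no test.

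**Figure D4:**
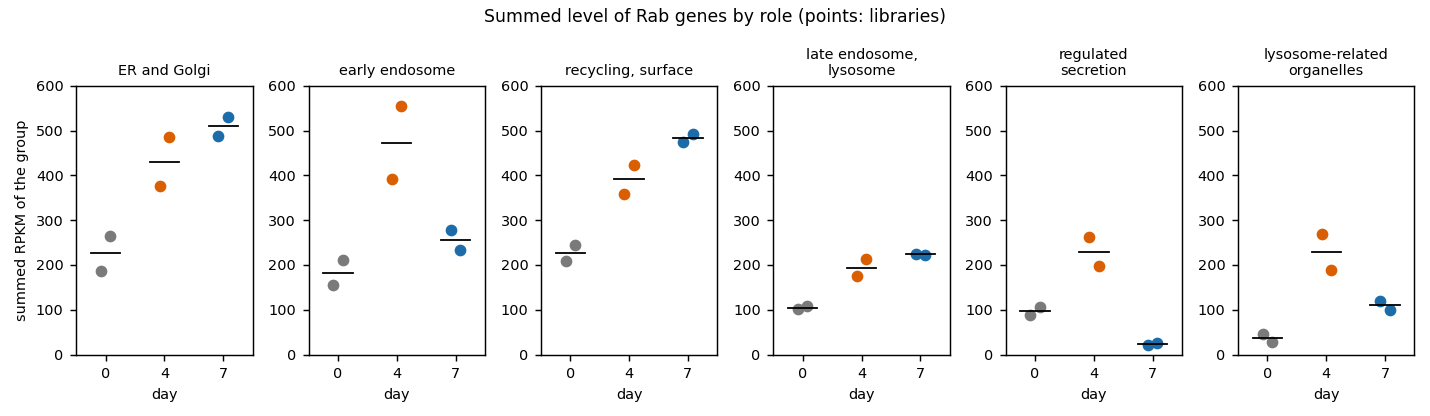
Summed RPKM of the Rab genes of each role by day, each point a library and each line the mean of 2, on a shared axis. Regulated secretion falls to 21.9 and 24.7 at day 7, while the recycling and surface group reaches 474 and 492.

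The 11 Rabs of recycling and surface transport had summed levels of 209 and 244 RPKM at day 0, 359 and 423 at day 4, then 474 and 492 at day 7. Rab11a, the main Rab of recycling endosomes (Entrez 53869), was at 23.9 and 29.9 RPKM at day 0, 90.4 and 84.0 at day 4, then 116 and 123 at day 7. The 3 days did not overlap, and each day's libraries lay close together. It rose at day 4 (1.67 ± 0.36, adjusted p = 0.038) and was higher at day 7 than at day 0 (2.12 ± 0.36, adjusted p = 0.0058), while its step from day 4 to day 7 did not pass (0.45 ± 0.36, adjusted p = 0.38). Of the Rab11a and Rab11b sum, Rab11a held 49.9% and 53.8% at day 0 and between 69.8% and 76.3% in the other 4 libraries.

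Rab10, which moves receptors and transporters to the cell surface (Entrez 19325), was at 33.5 and 32.5 RPKM at day 0, 20.2 and 35.8 at day 4, then 89.4 and 87.3 at day 7. Both day 7 libraries were above the other 4, and it rose between day 4 and day 7 (1.68 ± 0.39, adjusted p = 0.029). Exons of Rab10 share 143 bases with Rab10os on the opposite strand.

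Rab14 and Rab8a, which carry cargo from the Golgi and endosomes to the surface, were higher at day 7 than at day 0, Rab14 at 57.9 and 32.8 RPKM at day 0 against 120.2 and 117 at day 7, and Rab8a at 21.9 and 23.5 against 60.3 and 55.6. Rab13, a Rab of cell junctions, had 0 reads in both day 0 libraries, and 4.97 and 3.96 RPKM at day 4 and 5.67 and 12.1 at day 7. The day 0 floor of 3 reads over the group was 5.29 RPKM, so that its day 4 level was not detectably different at this depth despite the call, and at day 7 it was at least 1.56-fold higher. Rab25 and Rab17, known from epithelia, were called lower at day 7 than at day 0, but from 3 to 4 reads a library at day 0, at 4.77 to 17.9 RPKM. Rab11b, Rab8b, Rab35 and Rab15 passed no test. In the 3 comparisons the recycling and surface members gave 2 higher and 0 lower, 1 and 0, and 5 and 2, and their median log2 differences were 0.35, 0.05 and 0.81. The last pair is 45.5% and 18.2% of the group, beside 11.3% and 29.3% of all tested genes. The 2 and the 1 called higher in the earlier comparisons are 18.2% and 9.09%, beside 3.66% and 5.85%.

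Of the 10 ER and Golgi members, 0 were called in day 4 against day 0 in limma, beside 3.66% of all tested genes higher and 1.92% lower. Rab6a, Rab1b and Rab2a were higher at an unadjusted p under 0.05, beside 11.2% of all tested genes. Rab1b, which starts ER to Golgi transport (Entrez 76308), was at 43.9 and 20.7 RPKM at day 0, 55.1 and 81.3 at day 4, then 159.6 and 231 at day 7. It was higher at day 7 than at day 0 by 2.63 ± 0.48 (adjusted p = 0.0073). Rab2a, which acts at the same step, went from 40.7 and 27.7 RPKM at day 0 to 93.8 and 118 at day 7 (1.62 ± 0.41, adjusted p = 0.020).

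Rab6a, the Rab of transport back through the Golgi (Entrez 19346), was at 27.99 and 55.4 RPKM at day 0, 138 and 151 at day 4, then 48.4 and 23.3 at day 7. The day 4 libraries stood above the other 4. It fell between day 4 and day 7 (-2.07 ± 0.49, adjusted p = 0.030), and its rise before that missed the threshold (1.84 ± 0.49, adjusted p = 0.067). Exons of Rab6a share 708 bases with Mrpl48 on the opposite strand. Rab1, Rab18, Rab43, Rab33b, Rab2b, Rab6b and Rab30 passed no test, among them Rab1 at 106 and 87.7 RPKM and Rab30 at 0 reads in both day 7 libraries. From day 4 to day 7, 0 of the group rose and 1 fell (10%), beside 5.85% and 6.75% of all tested genes. In day 7 against day 0, 2 were higher (20%) and 0 lower, beside 11.3% and 29.3%. The group's median log2 differences were 0.25, 0.29 and 0.23.

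Rab32, which supplies lysosome-related organelles and acts on phagosomes (Entrez 67844), was at 40.7 and 24.7 RPKM at day 0, 265 and 182 at day 4, then 118 and 99.8 at day 7. The 3 days did not overlap. It rose 6.74-fold at day 4 (2.75 ± 0.43, adjusted p = 0.016) and was 3.34-fold higher at day 7 than at day 0 (1.74 ± 0.43, adjusted p = 0.019), while its step from day 4 to day 7 did not pass (-1.01 ± 0.43, adjusted p = 0.16). Its relative Rab38, known from melanosomes, lay between 0.0579 and 6.42 RPKM and passed no test.

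Among the 9 members outside these roles, Rab12, which sends receptors from recycling endosomes to lysosomes (Entrez 19328), was at 9.25 and 6.31 RPKM at day 0, 4.01 and 2.97 at day 4, then 28.5 and 28.3 at day 7. Day 7 lay above the other days in both libraries. The 4.01 RPKM in day 4 library I lay under the pooled receptor level of 4.33 and above the trimmed level of 3.08. Rab12 rose 6.59-fold between day 4 and day 7 (2.72 ± 0.41, adjusted p = 0.0049) and was higher at day 7 than at day 0 (1.76 ± 0.41, adjusted p = 0.016). Rab28, a Rab of cilia and phagocytosis, was at 49.4 and 53.9 RPKM at day 4, above 17.7 to 27.9 in the other 4 libraries, and missed the threshold (adjusted p = 0.054 and 0.085). Rab40b was called lower at day 7 than at day 0 from 2 reads in each day 0 library, and with the pooled receptor level subtracted its log2 difference was 0.14. The other members of this set, Rab19, Rab23, Rab33a, Rab39b, Rab40c and Rab42, were not called.

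**Figure D5:**
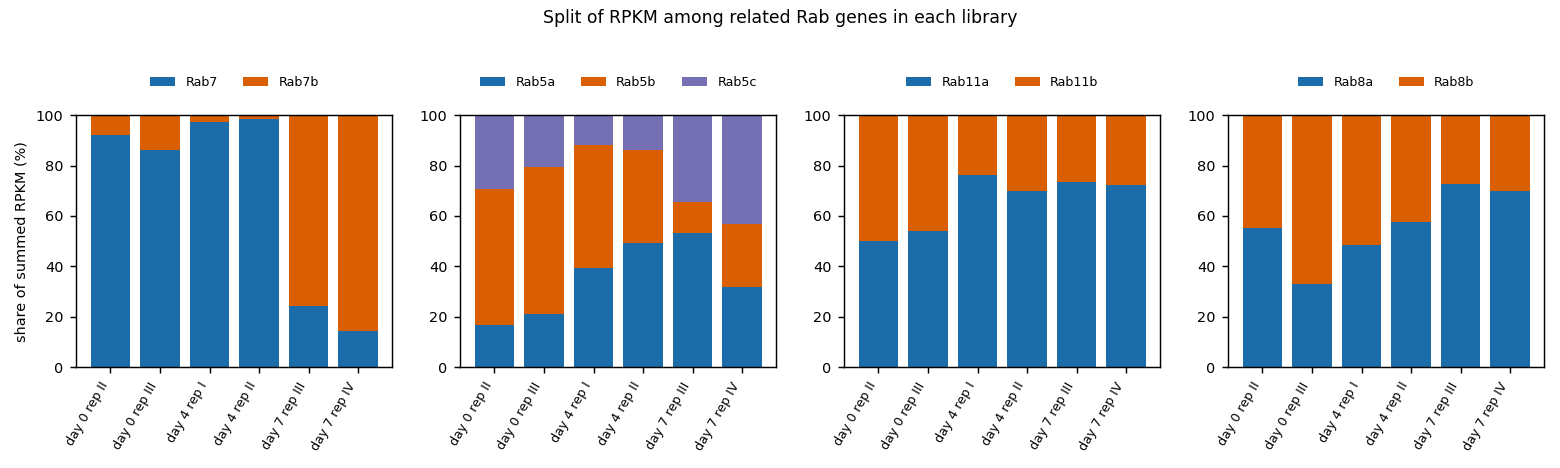
Share of the summed RPKM taken by each member of 4 sets of related Rab genes, as stacked bars for each of the 6 libraries. Rab7b takes 75.6% and 85.5% at day 7 after 1.56% to 13.9% in the other 4 libraries, and Rab11a takes 69.8% to 76.3% from day 4 on.

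The level on receptor genes was subtracted from every gene in each library as a check on low values, in the pooled form and in the trimmed form, the latter chosen after seeing the data. Of the 10 members called lower at day 7 than at day 0, Rab44 and Rab27a kept the call under both forms and Rab25 under the trimmed form. The other 7, Rab7 among them, were no longer called lower under either. Rab7 was not a low value, at 47.5 and 32.4 RPKM at day 0 beside a pooled receptor level of 8.71 and 8.29. The fit's prior degrees of freedom, a measure of how far the spread is shared across genes, also differed. They were 5.22 without subtraction, 0.85 with the pooled form and 1.14 with the trimmed form. A lost call therefore does not by itself mark a low value, and why calls were lost was not tested. Of the 16 called higher, 10 kept the call under the pooled form and 6 under the trimmed form, with Rab7b, Rab9, Rab11a, Rab1b and Rab4b in both sets. All 6 members called at day 4 but Rab13 kept their call under both forms, and so did all 7 members that fell between day 4 and day 7 but Rab6a. Of the 4 that rose in that step Rab7b kept its call under both forms and Rab12 under the pooled form. Rab44, Rab27a, Rab7b and Rab9 kept their call in day 7 against day 0 whichever single library was left out.

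The 149 genes that prenylate, load, unload and read Rabs were listed in 7 groups, all of them found and tested. Of these 10 rose and 3 fell at day 4, 3 rose and 19 fell from day 4 to day 7, and 13 rose and 35 fell between day 0 and day 7. As shares these are 6.71% and 2.01%, 2.01% and 12.8%, and 8.72% and 23.5%, beside 3.66% and 1.92%, 5.85% and 6.75%, and 11.3% and 29.3% of all tested genes. Their median log2 differences were -0.12, -0.62 and -0.64, beside -0.32, -0.74 and -1.02 over all genes.

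Rabif, a chaperone of nucleotide-free Rabs, rose at day 4 and fell by day 7, with 41.9 and 75.5 RPKM at day 4 and 6.47 to 19.2 in the other libraries. Gdi2, a GDP dissociation inhibitor that takes Rabs off membranes, was at 43.4 and 45.6 RPKM at day 0 and 99.8 and 103.5 at day 7, and was higher at day 7 than at day 0 (1.17 ± 0.37, adjusted p = 0.036). Rabac1, the prenylated Rab acceptor, reached 343 and 382 RPKM at day 7 from 18.3 and 0 at day 0. Of the 8 genes in this group 2 rose and 0 fell at day 4, 0 rose and 2 fell from day 4 to day 7, and 2 rose and 1 fell over the culture. As shares these are 25% and 0%, 0% and 25%, and 25% and 12.5%. Beside them stand 3.66% and 1.92%, 5.85% and 6.75%, and 11.3% and 29.3% of all tested genes.

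Among 35 exchange factors the counts of higher and lower were 3 and 2, 1 and 5, and 2 and 9. As shares these are 8.57% and 5.71%, 2.86% and 14.3%, and 5.71% and 25.7%. Beside them stand 3.66% and 1.92%, 5.85% and 6.75%, and 11.3% and 29.3% of all genes. Rin3, which activates Rab5 and Rab31, was at 13.9 and 19.9 RPKM at day 0, 61.7 and 51.8 at day 4, then 10.9 and 10.5 at day 7, and rose and fell (adjusted p = 0.039 and 0.0065). Sh3bp5, an exchange factor of Rab11, was at 73.3 and 78.6 RPKM at day 4 against 17.2 to 25.9 in the other libraries, also called in both steps. Ccz1, part of the exchange factor of Rab7, rose from 5.25 and 7.16 RPKM at day 0 to 27.3 and 21.1 at day 4. Dennd3, an exchange factor of Rab12, fell from 23.5 and 12.5 RPKM at day 4 to 0.422 and 0 at day 7 (-3.93 ± 0.51, adjusted p = 0.0025), over the step in which Rab12 rose.

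The 35 GTPase-activating proteins gave 1 and 0 (2.86% and 0%), 1 and 4 (2.86% and 11.4%), and 2 and 8 (5.71% and 22.9%). Beside these stand 3.66% and 1.92%, 5.85% and 6.75%, and 11.3% and 29.3% of all tested genes. Tbc1d10c was at 7.39 and 2.16 RPKM at day 0, 50.7 and 24.7 at day 4, then 0.464 and 0.280 at day 7, rising and then falling (adjusted p = 0.039 and 0.0025), and Tbc1d20 fell between day 4 and day 7 from 38.7 and 69.9 RPKM to 3.63 and 1.27. Tbc1d13 rose over that step from 2.43 and 1.08 RPKM to 18.9 and 23.2 (3.04 ± 0.55, adjusted p = 0.010). The 29 endosome effectors and tethers gave 3 and 1 (10.3% and 3.45%), 0 and 1 (0% and 3.45%), and 5 and 2 (17.2% and 6.90%), beside the same shares of all tested genes. Plekhm1, which links Rab7 to fusion with lysosomes, was at 4.83 and 3.71 RPKM at day 0, 28.4 and 88.9 at day 4, then 26.2 and 36.6 at day 7. Rilpl2, an effector of Rabs marked by Lrrk2, rose from 14.8 and 20.1 RPKM at day 0 to 96.0 and 93.0 at day 7.

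Lrrk2, the kinase that phosphorylates several Rabs, was at 9.21 and 12.1 RPKM at day 0, 37.4 and 42.2 at day 4, then 0.751 and 1.30 at day 7. It rose (1.82 ± 0.41, adjusted p = 0.045) and then fell (-4.34 ± 0.41, adjusted p = 0.00069). Among 26 effectors of recycling and transport 0 were called at day 4 in limma, beside 3.66% of all genes higher and 1.92% lower. At an unadjusted p under 0.05 in limma, 2 were higher and 3 lower, beside 11.2% and 14.2% of all genes. In the second step 1 rose and 5 fell (3.85% and 19.2%, beside 5.85% and 6.75%). Over the culture 2 rose and 8 fell (7.69% and 30.8%, beside 11.3% and 29.3%). Rab11fip5 was the 1 that rose in the second step, from 0.957 and 0.551 RPKM to 21.7 and 18.6. Of 14 secretory effectors 0 were called at day 4 in limma (1 higher and 1 lower at an unadjusted p under 0.05). Between day 4 and day 7, 1 fell (7.14%, beside 6.75% of all genes). At day 7, 6 were lower than at day 0 (42.9%, beside 29.3% of all genes). Their median level at day 0, 3.16 and 3.62 RPKM, was about that of the trimmed receptor genes, 2.996 and 4.42. The 1 that fell in the second step was Unc13d, the partner of Rab27a in granule release, with 26.7 and 24.7 RPKM at day 4 and 7.90 and 3.63 at day 7 (-2.06 ± 0.54, adjusted p = 0.042).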

How the data were processed

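RNA was sequenced from 6 libraries, 2 each of days 0, 4 and 7. The authors deposited RPKM per gene with exon lengths, per the file headers, which they had scaled by exon length and library size. Per the labels' protocols, RNeasy served for RNA isolation, SMARTer for cDNA and NexteraXT for libraries. TopHat2 2.0.13, SAMtools 1.1 and the build mm9 are named per the submitters' processing notes, without roles. For the read counter, the annotation, strand and reads shared by paralogs, the settings were not given in the sources used here. Positions in the printed promoters are of GRCm38.p6 and were not joined to the expression values by coordinates.

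Multiplying RPKM by exon length and dividing by the step of each library gave read numbers and library totals, at most 6.88e-05 reads away from a whole number. Genes with at least 1 RPKM in at least 2 libraries, 19279 of 21761, were tested on log2(RPKM + 1) with limma 3.58.1 in R 4.3.3 (3 group means, mean-variance trend, 3 residual degrees of freedom). The scale understates the change of genes with low values. Every adjusted p is Benjamini-Hochberg over all genes tested, two-sided, from limma, and a gene was called under 0.05. Exact Clopper-Pearson intervals at 95% were used for shares, and exact conditional binomial intervals for ratios of few reads, with a floor of 3 reads over a group. These cover counting error only. The fitting steps were tried on simulated data. With a larger simulated spread and smaller folds the fit recovered none of the changed genes, so a smaller spread and larger folds were then used. With 2 libraries a group the fit has low power for smaller folds. Passing no test therefore does not show that a gene stayed the same. Overlapping exons were read from GENCODE M21 by gene symbol, and plots were drawn with matplotlib 3.10.9.

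The members, the role, machinery and marker lists and the tests were chosen with earlier results of these data known. All Rab members were named. From each machinery list the genes named were among the 5 called with the smallest adjusted p in a comparison or the 3 of highest mean RPKM, and from the marker lists a set of defining markers. Alternatives covered the pseudocount, filters, scaling, receptor level, weights, recovered reads with voom, thinning and leaving out each library. Some genes of the machinery lists are counted but not reported by name here.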

Additional observations from a re-analysis of the deposited data

How the results depend on the processing

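Every called Rab member was refitted under 18 alternatives for its comparison. In day 4 against day 0, 54 of 108 such values kept the call and 54 kept only the direction. In day 7 against day 4 the numbers were 138 and 60 of 198, and in day 7 against day 0 312 and 147 of 462, with 3 turned around. These were Rab3b, Rab3c and Rab40b, at log2 differences of 0.0883, 0.135 and 0.138 with the pooled receptor level subtracted. Rab9b, whose difference was 0 in that setting, is counted among the 147 though it kept no direction. Rab17, Rab34, Rab3b, Rab3c, Rab40b and Rab9b have no value in day 7 against day 0 under the filter at 5 RPKM, where they were not tested.

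Counts of members called higher and lower follow for the first step (day 4 against day 0), the second step (day 7 against day 4) and the whole culture (day 7 against day 0), beside 6 and 0, 4 and 7, and 16 and 10. A pseudocount of 0.1 gave 3 and 0, 4 and 8, and 16 and 15. No filter on low values gave 4 and 0, 4 and 6, and 16 and 10, and a filter at 5 RPKM 9 and 2, 5 and 7, and 15 and 6. Median ratio scaling gave 7 and 1, 4 and 7, and 18 and 9. Quantile normalization gave 4 and 1, 1 and 5, and 5 and 5, with the median fitted log2 difference of all tested genes moving from -0.40, -0.81 and -1.14 to -0.04, 0.04 and -0.01. Subtracting the pooled receptor level gave 10 and 0, 3 and 6, and 14 and 2, and the trimmed level, chosen after seeing the data, 9 and 0, 1 and 6, and 6 and 3. Recovered reads in voom gave 1 and 0, 8 and 21, and 7 and 19. Thinning to the smallest library gave 5 and 1, 2 and 6, and 6 and 8. A fit with no trend gave 1 and 0, 2 and 5, and 11 and 13, and a fit of only the 2 days compared 2 and 0, 7 and 11, and 12 and 13. Weights per library gave 0 and 0 in limma, where 0 of all tested genes were called (8 and 3 members at an unadjusted p under 0.05, beside 6.70% and 7.60% of all genes), then 3 and 6, and 12 and 9. The cause of these shifts was not tested.

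Over the 6 fits that each leave out 1 library, the counts ran from 0 to 12 higher and 0 to 4 lower in day 4 against day 0, from 0 to 7 and 0 to 11 in day 7 against day 4, and from 2 to 18 and 2 to 14 in day 7 against day 0. A lone library of a day is there assumed to vary like those of the other days.

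The share of reads in Rab genes, less the pooled receptor level, was 0.0931% and 0.184% at day 0 and 0.501% and 0.620% at day 4. Less the trimmed level it was 0.196% and 0.253%, and 0.523% and 0.625%. Both day 7 values stayed within their intervals. No paired analysis was possible because any pair of days shares at most 1 replicate number. At day 0, 1 read of a gene 1 kb long was worth 3.10 and 6.34 RPKM, which limits what could be seen of low Rab genes on that day.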
